A study of Mus musculus with 35 samples.

Results

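The 7 genes described here supply ubiquitin, remove it or read it. They are the polyubiquitin gene Ubb, the deubiquitinases Uchl1, Uchl3, Uchl5 and Usp14, the ubiquitin receptor Sqstm1 and the unfoldase Vcp. Their rows were taken by symbol from a table of 33292 mouse genes, and all 7 were found. The levels are in TPM, for which the reads of a gene are divided by its length and scaled to the same sum in every library. Podocytes, the epithelial cells that cover the glomerular capillaries, were sorted from the kidneys of 35 mice after 7 days of doxycycline, and each mouse gave 1 library.

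In all mice, doxycycline at 2 mg/ml in the drinking water switched on Cre recombinase through rtTA driven by a promoter fragment active in podocytes, and a tetO::Cre transgene. Cre removed a floxed part of 1 Lmx1b allele and turned on green fluorescence from the mT/mG reporter, by which the cells were sorted. The other Lmx1b allele was the normal one in the control mice (labelled WT, Lmx1b +/lox in the study), or carried the H77L mutation in the first LIM domain (H77L/lox), or the C118F mutation in the second (C118F/lox). The mice were on a C57BL/6 background and entered the experiment at 7 to 10 weeks of age, from different litters. Bortezomib (Btz), an inhibitor of the proteasome, was injected at 0.3 µg/g body weight every other day, and the other mice received its solvent DMSO. There were 6 mice in each group, except for 5 Btz-treated C118F/lox mice. Since the floxed allele was lost in the controls as well, every comparison of genotypes set a mutant allele against a normal allele in cells with a single remaining Lmx1b copy.

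Ubiquitin is a small protein that is joined to other proteins, most often as a chain, and marks many of them for the 26S proteasome. It is never made as a free protein. Ubb encodes a head-to-tail chain of ubiquitin and Rps27a encodes ubiquitin fused to a ribosomal protein, so deubiquitinases have to release the units. Usp14 and Uchl5 sit on the 19S cap of the proteasome and trim chains from arriving substrates. Vcp pulls ubiquitin-marked proteins out of membranes and complexes, and Sqstm1, also called p62, collects ubiquitin-marked cargo for autophagy. Podocytes are long-lived cells that hardly divide, and Uchl1, best known as an abundant protein of neurons, is also known from injured podocytes.

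The coding sequences show how alike the ubiquitin units of Ubb and Rps27a are, which matters for counting their reads. In GENCODE vM39, Ubb (Ensembl gene ENSMUSG00000019505, chr11:62441951-62445102, + strand, GRCm39) encodes 4 ubiquitin units of 76 residues, and Rps27a encodes 1 unit of the same residues. The first unit of Ubb (chr11:62442972-62443199, + strand) and the unit of Rps27a, whose coding exons lie within chr11:29496384-29497728 (- strand), are shown with the bases that differ from the first unit of Ubb in capitals.
Ubb unit 1: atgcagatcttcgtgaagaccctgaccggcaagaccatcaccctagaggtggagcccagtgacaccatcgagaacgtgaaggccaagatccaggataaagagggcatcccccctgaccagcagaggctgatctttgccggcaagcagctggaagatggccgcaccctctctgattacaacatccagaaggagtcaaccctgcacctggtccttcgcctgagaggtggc
Rps27a unit: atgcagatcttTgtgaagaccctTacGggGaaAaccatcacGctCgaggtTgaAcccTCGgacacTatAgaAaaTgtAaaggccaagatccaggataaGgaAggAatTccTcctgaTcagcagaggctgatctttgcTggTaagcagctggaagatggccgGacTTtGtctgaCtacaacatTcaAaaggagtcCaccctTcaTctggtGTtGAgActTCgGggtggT
The Rps27a unit differed from the first unit of Ubb at 44 bases (80.7% identity). Within Ubb, units 2 to 4 differed from unit 1 at 2 to 10 bases. Reads that fall inside the units of Ubb can therefore match several places within that gene, and its level is uncertain to that extent. Whether reads were shared between Ubb and Rps27a, whose units differ more, was not tested. Among the members of the ubiquitin C-terminal hydrolase (UCH) family, the coding sequence of Uchl3 was 96.1% identical to that of its near copy Uchl4 and 60.1% identical to that of Uchl1, so reads may also be shared between Uchl3 and Uchl4.

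RefSeq (GRCm38.p6) gave 7 promoter windows around the start sites of 6 of the genes, with 2 for Ubb and none used for Usp14. Of these windows, 3 held the letters TGACNNNGC on either strand, the core of the antioxidant response element. Those letters were in 12.4% of all 32851 promoters in the table. They lay at position -29 from the second Ubb start site, at -34 in Uchl5 and at -114 in Vcp. The 60 bases before the start sites of Ubb (chr11:62551671-62551730, + strand) and Uchl5 (chr1:143777218-143777277, + strand) are given with that match in capitals, since both genes were called lower in the DMSO-treated H77L/lox mice.
Ubb promoter: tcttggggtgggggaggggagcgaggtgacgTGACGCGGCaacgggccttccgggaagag
Uchl5 promoter: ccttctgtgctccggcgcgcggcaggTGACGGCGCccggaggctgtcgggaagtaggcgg
The core of the heat shock element, GAANNTTC, was found in the promoters of Uchl1 and Vcp and in 7.9% of all promoters. The homeodomain core TAATTA, the kind of site to which Lmx1b binds, was in none of the 7 and in 5.3% of all. The TGACNNNGC match is a description of the letters and not of binding, and a window without a match says nothing about a factor.

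The libraries held between 5259885 and 24115621 reads by an estimate from the steps of the TPM values, with a median of 19136246. The smallest came from C118F Btz replicate 2 and the next smallest, from WT DMSO replicate 2, had 14023339. The mouse least like its own group was C118F DMSO replicate 1, with a median Spearman correlation of 0.94 to the others of that group. Lmx1b itself was at 44.8 to 89.7 TPM in the WT DMSO mice and at 89.9 to 139.5 TPM in the H77L DMSO mice, while the C118F DMSO mice, at 37.4 to 185.4 TPM, and the WT Btz mice, at 54.9 to 125.2 TPM, overlapped with both. This does not check the genotypes, because a point mutation and the transcript of the floxed allele are both counted under the same gene. Podocyte markers were abundant in all groups, but their summed level was lower in both mutant lines: 22893 to 37692 TPM for 10 markers in WT DMSO, 5625 to 10039 TPM in H77L DMSO and 5326 to 12323 TPM in C118F DMSO. The ranges were 21683 to 30394 TPM in WT Btz, 10058 to 14221 TPM in H77L Btz and 8041 to 11874 TPM in C118F Btz. In each of the 4 comparisons of a mutant line with WT, 8 of the 10 podocyte markers were called lower. The share of all genes called lower was 22.4% in H77L DMSO, 16.6% in C118F DMSO, 11% in H77L Btz and 12.4% in C118F Btz. Cd2ap, of the same list, was called higher in H77L under DMSO. Of 7 mesangial markers 4 were tested, of which Des, Pdgfrb and Ptn were called higher in all 4 comparisons, and Agtr1a was called lower in H77L (-0.79, adjusted p = 0.0402) and C118F (-1.44, adjusted p = 0.00233) under Btz and not called under DMSO. The summed level of this list was 49.3 to 180.5 TPM in WT DMSO, 54.2 to 76.7 TPM in WT Btz and 446 to 1027 TPM over the 4 mutant groups, while the mesangial integrin Itga8 was at no more than 1 TPM in every mouse of 4 of the 6 groups. The summed level of 8 markers of parietal epithelial cells was 116.8 to 278.4 TPM in WT DMSO and 188.9 to 511.3 TPM in H77L DMSO. Of the 4 or 5 tested, 1 to 4 were called higher in the comparisons with WT. Over all genes, 22.4% were called higher in H77L DMSO, 13.7% in C118F DMSO, 12.5% in H77L Btz and 15.1% in C118F Btz. These shares stand beside the mesangial counts too. Of 8 markers each for endothelial cells, tubule and leukocytes, no more than 2 passed the filter on low values in a comparison with WT. Among these, the leukocyte markers Lyz2 and Cd68 were called, Lyz2 lower in C118F under DMSO and Cd68 higher in C118F under Btz. The part of these shifts in the results for the ubiquitin genes was not tested. In bulk samples such as these, fewer cells of a type and less RNA per cell cannot be told apart.

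Ubb was lower in both mutant lines, with and without Btz. In WT DMSO podocytes its level was 2000.3 to 2739 TPM with a median of 2375, and by its mean over all mice it ranked 44 among 23943 expressed genes. The level was 1294 to 1718 TPM in H77L DMSO, with a median of 1580.3, and 1428 to 2292 TPM in C118F DMSO, with a median of 1626. All 6 H77L mice lay below all 6 WT mice, as in 10.12% of the 10964 genes tested, of which 22.4% were called lower, and 5 of the 6 C118F mice did so. On the log2(TPM + 1) scale, the difference from WT under DMSO was -0.63 ± 0.11 (SE) in H77L (0.648-fold, adjusted p = 3.6e-04, limma, n = 6 and 6) and -0.50 ± 0.13 in C118F (0.707-fold, adjusted p = 0.0118). A gene is called here when its p-value, adjusted by Benjamini-Hochberg over all genes tested, is under 0.05.

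Under Btz, Ubb ranged from 1832 to 3439.5 TPM in WT mice, with a median of 2344, and from 1688.5 to 1880.3 TPM in H77L mice, with a median of 1727. The 5 Btz-treated C118F mice had 1545, 1617, 1624, 1763 and 1836 TPM. The groups overlapped at their edges, as 5 of 6 H77L mice and 4 of 5 C118F mice lay below every WT mouse. The mouse at 3439.5 TPM, WT Btz replicate 6, was far above its group. The differences from WT were -0.41 ± 0.13 in H77L (adjusted p = 0.0336) and -0.47 ± 0.15 in C118F (adjusted p = 0.0335). These calls were near the threshold: the call in H77L was lost without WT Btz replicate 1, 2 or 3 or without H77L Btz replicate 1, 2, 3, 5 or 6 (adjusted p = 0.0504 to 0.0618), and that in C118F without WT Btz replicate 1, 2 or 3 or C118F Btz replicate 1, 2 or 3 (adjusted p = 0.0539 to 0.0755). Without WT Btz replicate 6, both were still called, at -0.29 and -0.36.

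**Figure D1:**
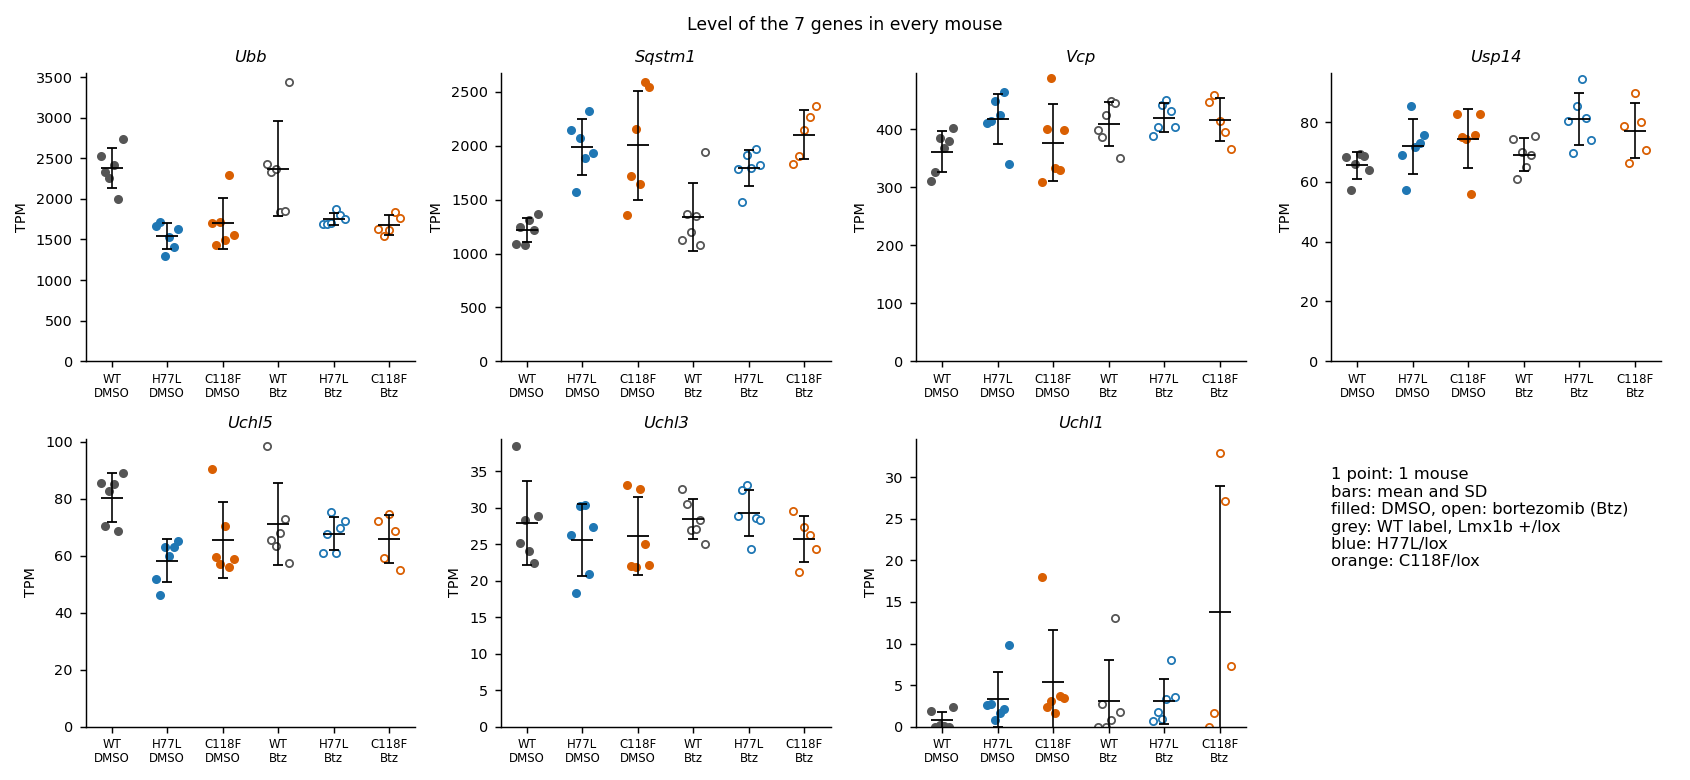
TPM (y axis, linear and starting at 0) of the 7 genes in each of the 35 mice, by genotype and treatment on the x axis; points are mice, bars are the mean and SD, and the lower bars of Uchl1 that pass 0 are clipped there. Ubb and Uchl5 of the DMSO-treated H77L/lox mice lie below and Sqstm1 lies above all WT mice of that treatment, Vcp, Usp14 and Uchl3 overlap between the genotypes of each treatment, and Uchl1 is low in most WT mice.

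Uchl1 did not pass the filter on low values in 7 of the 12 comparisons, and the other 6 genes were tested in all. Of the 6 tested, 2 were called lower in H77L against WT under DMSO, Ubb and Uchl5, and Sqstm1 was called higher, beside 22.4% of 10964 genes tested that were called lower and 22.4% called higher. In C118F against WT under DMSO, Ubb was called lower and Sqstm1 and Uchl1 were called higher, where 16.6% of 10899 genes were called lower and 13.7% higher. Under Btz, Ubb was called lower and Sqstm1 higher in both lines. The share of all genes called lower was 11% in H77L and 12.4% in C118F, and the share called higher was 12.5% and 15.1%. With so many genes called, 3 of 6 or 3 of 7 in a comparison is not far from the background share. The 3 in C118F under DMSO include Uchl1, which passed the filter only through that group, where it was high.

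Rps27a, which makes ubiquitin together with a protein of the small ribosomal subunit, had the same direction as Ubb under DMSO. It was at 135.7 to 234.7 TPM in WT DMSO (median 191.6), at 115.5 to 137.9 TPM in H77L DMSO (median 128.9) and at 92.4 to 168.6 TPM in C118F DMSO (median 132.5). Of the 6 mice of each mutant line, 5 H77L and 3 C118F mice lay below all WT mice. The difference from WT was -0.55 ± 0.11 in H77L (adjusted p = 8.9e-04) and -0.53 ± 0.16 in C118F (adjusted p = 0.0195). Under Btz, Rps27a was not called (-0.03 ± 0.11 in H77L, adjusted p = 0.88, and -0.33 ± 0.15 in C118F, adjusted p = 0.11), with medians of 158.7 TPM in WT, 151.5 TPM in H77L and 122.5 TPM in C118F. Genes were tested if they passed a filter on low values, for which a gene had to exceed 1 TPM throughout 1 or more of the compared groups.

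Sqstm1 (chr11:50089572-50107684, - strand) was the member that was higher in both mutant lines under both treatments. Its level was 1083 to 1369.9 TPM in WT DMSO, with a median of 1229, 1570.3 to 2326 TPM in H77L DMSO, with a median of 2003, and 1356 to 2595 TPM in C118F DMSO, with a median of 1939.5. Every H77L mouse lay above all WT mice, as in 10.98% of the genes tested, and 5 of 6 C118F mice did so. The difference was 0.70 ± 0.11 in H77L (1.63-fold, adjusted p = 1.6e-04) and 0.68 ± 0.16 in C118F (1.6-fold, adjusted p = 0.0054). Under Btz, WT mice ranged from 1079.9 to 1941 TPM (median 1272.5) and H77L mice from 1477 to 1968 TPM (median 1808). The 5 C118F Btz mice had 1833, 1907, 2147, 2265 and 2369.6 TPM. The highest WT Btz value was again replicate 6, above which lay 1 H77L mouse and 3 C118F mice. The differences were 0.44 ± 0.13 in H77L (adjusted p = 0.0206) and 0.67 ± 0.15 in C118F (adjusted p = 0.0040). Without WT Btz replicate 5, Sqstm1 was not called in H77L (adjusted p = 0.0503). With the leading number of the sample title as a covariate, the differences under Btz were 0.29 in H77L (adjusted p = 0.0863) and 0.36 in C118F (adjusted p = 0.134), and neither was called.

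Sqstm1 stands in a list of 14 ubiquitin receptors and shuttle factors, proteins that bind ubiquitin chains and carry the cargo to autophagosomes or the proteasome. Under DMSO, 5 of 14 were called higher and 3 lower in H77L, and 2 higher and 3 lower in C118F. Over all genes, 22.4% were called higher and 22.4% lower in H77L, and 13.7% higher and 16.6% lower in C118F, so these counts were near the background except for the 5 called higher in H77L. The median difference of the list was 0.16 in H77L, against -0.01 over all genes tested, and close to 0 in C118F, against -0.06. Tom1, an adaptor that binds ubiquitin on endosomes, was called higher in all 4 comparisons with WT, by 0.37 to 0.61. The share of all genes called higher in all 4 was not counted. The autophagy receptor Tax1bp1 was called higher in H77L DMSO (0.51 ± 0.09, adjusted p = 2.9e-04) but not in C118F DMSO (0.34 ± 0.16, adjusted p = 0.14). Optineurin, Optn, another autophagy receptor, was called lower in H77L DMSO (-0.51 ± 0.13, adjusted p = 0.00615) and C118F DMSO (-0.71 ± 0.17, adjusted p = 0.0054).

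Of the deubiquitinases bound to the proteasome, Uchl5 was lower in the H77L mice under DMSO, and Usp14 was not called in any comparison. Uchl5 (chr1:143652945-143683635, + strand) was at 68.7 to 89.1 TPM in WT DMSO (median 84.1) and at 46.1 to 65.3 TPM in H77L DMSO (median 61.5), so that no H77L mouse reached the lowest WT mouse, as in 10.12% of the genes tested. The difference was -0.46 ± 0.10 (0.727-fold, adjusted p = 0.0025). In C118F DMSO, 4 of 6 mice lay below all WT mice, but 1 mouse, replicate 1, was above all of them at 90.3 TPM. The difference there was -0.31 ± 0.13 (adjusted p = 0.0814), and without replicate 1 it was called at -0.40 (adjusted p = 0.0104). Under Btz the medians were 66.7 TPM in WT, 68.7 TPM in H77L and 68.7 TPM in C118F, and the differences from WT were -0.05 ± 0.11 and -0.10 ± 0.14, neither called. Of the 6 WT Btz mice, 4 lay below all WT DMSO mice, while replicate 1 stood alone at 98.5 TPM.

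Usp14 was at 57.2 to 69.4 TPM in WT DMSO (median 67.1), 57.2 to 85.5 TPM in H77L DMSO (median 72.3) and 55.9 to 82.8 TPM in C118F DMSO (median 75.4). Under Btz the medians were 69.4 TPM in WT, 80.9 TPM in H77L and 78.8 TPM in C118F. The estimated differences from WT lay between 0.13 and 0.22 in the 4 comparisons, and the 95% interval that reached highest, in H77L under Btz, went from 0.04 to 0.41 (adjusted p = 0.0785). Without H77L Btz replicate 2 that difference was 0.26 and was called (adjusted p = 0.0442).

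Usp14 and Uchl5 dock on subunits of the 19S cap, Usp14 on Psmd2 and Uchl5 on Adrm1. In the list of 8 genes that holds both enzymes, their docking subunits and the cap's own deubiquitinase Psmd14, 1 was called higher and 2 lower in H77L under DMSO, 1 was called lower in C118F under DMSO and none was called under Btz. The ubiquitin receptor Psmd4 was called lower in both lines under DMSO (-0.41 ± 0.09 and -0.29 ± 0.10), and Psmd2 was called higher in H77L (0.20 ± 0.07, adjusted p = 0.0438). Psmd14 had medians of 168.5, 148.9 and 169.8 TPM in WT, H77L and C118F DMSO and was not called (adjusted p = 0.0593 in H77L). Over all 32 subunits of the 26S proteasome, 3 were called higher and 12 lower in H77L DMSO, 1 higher and 4 lower in C118F DMSO, 1 higher and none lower in H77L Btz, and 1 higher and 3 lower in C118F Btz. The share of all genes called lower in these comparisons was 22.4%, 16.6%, 11% and 12.4%, so that 12 of 32 in H77L DMSO was above the background and 4 of 32 in C118F DMSO was below it. The share called higher was 22.4%, 13.7%, 12.5% and 15.1%, and the subunits called higher were below it in each comparison. The medians of the 32 subunits were -0.16, -0.07, -0.01 and -0.10 in that order. These shares of all genes stand beside the counts in the list of 8 genes too. Psmb3 and Psmb6, subunits of the 20S core, were among those called lower in both lines under DMSO, Psmb3 by -0.53 ± 0.08 in H77L and -0.54 ± 0.15 in C118F. The lid subunit Psmd12 was the 1 subunit called higher in all 4 comparisons, by 0.32 to 0.42. The share of all genes called higher in all 4 was not counted.

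Vcp (chr4:42979412-43000527, - strand) was not called in any comparison. Its level was 311 to 402 TPM in WT DMSO, 341 to 465 TPM in H77L DMSO, 309 to 488 TPM in C118F DMSO, 351 to 449 TPM in WT Btz and 389 to 451 TPM in H77L Btz. The 5 C118F Btz mice had 367, 396, 414, 447 and 459.5 TPM. The largest difference from WT, in H77L under DMSO, was 0.21 ± 0.09 (95% interval 0.01 to 0.40, adjusted p = 0.0849), and it was called without H77L DMSO replicate 6 (0.26, adjusted p = 0.0232). In the other 3 comparisons with WT the estimates were 0.03 to 0.05, with intervals that did not pass -0.21 or 0.30.

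The cofactors of Vcp were called lower about as often as all genes under DMSO. Of 28 genes in the list of Vcp and its cofactors, 27 were tested under DMSO. Of these 2 were called higher and 6 lower in H77L, and 1 higher and 5 lower in C118F. Of all genes, 22.4% were called higher and 22.4% lower in H77L, and 13.7% higher and 16.6% lower in C118F. Under Btz, 26 were tested, with 1 called higher and 4 lower in either line. Of all genes, 12.5% were called higher and 11% lower in H77L, and 15.1% higher and 12.4% lower in C118F. The genes of this list called higher were thus below the shares of all genes in all 4 comparisons. The same 4 genes, Svip, Derl2, Ubxn1 and Ubxn2b, were called lower and Ubxn4 was called higher in all 4 comparisons. The share of all genes called in all 4 was not counted, and comparisons under the same treatment share their WT mice. Svip, a small inhibitor of Vcp at the endoplasmic reticulum, was at 130.2 to 168.4 TPM in WT DMSO and at 67.1 to 87.4 TPM in H77L DMSO, without overlap, as in 10.12% of the genes tested (-0.91 ± 0.09, adjusted p = 2.4e-06), and at 62.5 to 93.8 TPM in C118F DMSO (-0.92 ± 0.11). Derl2, a membrane protein of the pathway that returns misfolded proteins from the endoplasmic reticulum, was lower by -0.72 ± 0.08 and -0.57 ± 0.10 under DMSO. Ubxn2b, an adaptor of Vcp, was lower by -0.67 ± 0.11 and -0.87 ± 0.13. The list median stayed between -0.03 and 0.01.

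**Figure D2:**
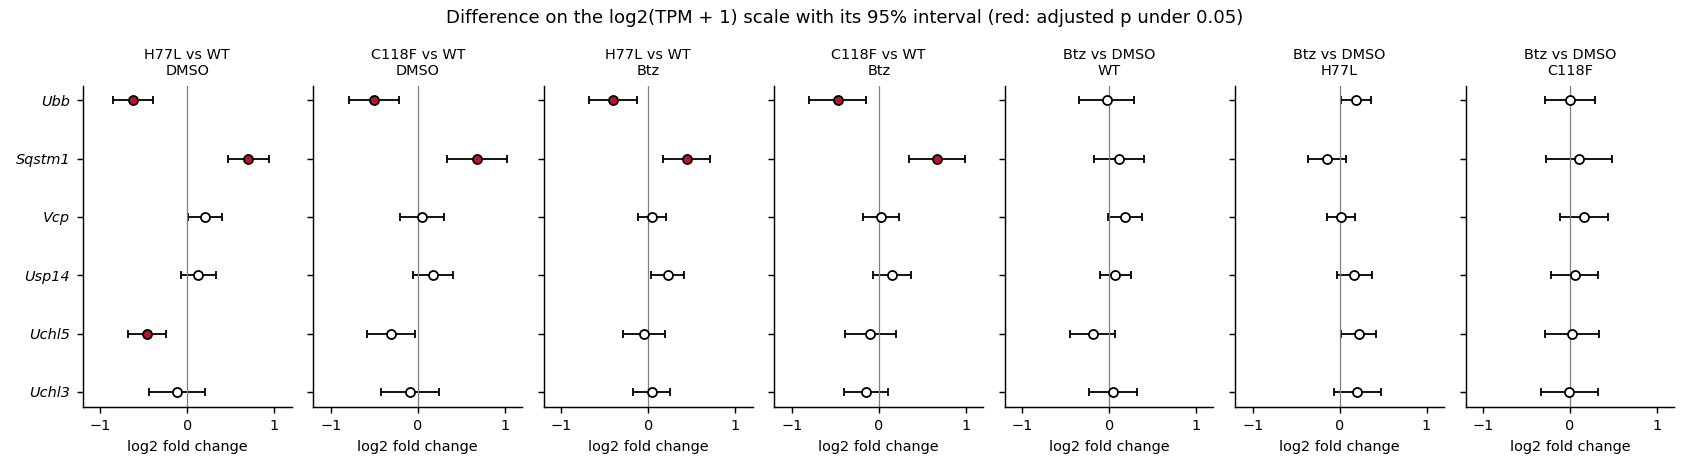
Differences of 6 of the genes on the log2(TPM + 1) scale (x axis) with 95% intervals, for the 4 comparisons of a mutant line with WT and the 3 of Btz with DMSO; red points have an adjusted p under 0.05, and Uchl1 is left out because it was tested in few comparisons. Ubb is to the left and Sqstm1 to the right of 0 in the 4 comparisons with WT, Uchl5 is red in H77L under DMSO, and no point is red in the 3 comparisons of Btz with DMSO.

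The members of the UCH family differed greatly in level. Uchl3 (chr14:101891175-101935431, + strand) was at 18.3 to 38.5 TPM over the 35 mice, with group medians between 23.6 and 28.7 TPM, and was not called in any comparison. Its differences from WT were -0.12 ± 0.15, -0.09 ± 0.16, 0.04 ± 0.10 and -0.14 ± 0.12 in H77L DMSO, C118F DMSO, H77L Btz and C118F Btz. Its near copy Uchl4 did not exceed 2.74 TPM in any mouse and was not tested.

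Uchl1 (chr5:66832748-66845009, + strand) was rare and uneven. In WT DMSO mice it was at 0, 0, 0.11, 0.20, 1.88 and 2.3 TPM, which corresponds to 0 to 22 reads. In H77L DMSO it was at 0.73 to 9.8 TPM with a median of 2.36, and in C118F DMSO at 1.6 to 18 TPM with a median of 3.27. Under Btz, the WT mice ranged from 0 to 13 TPM with a median of 1.25 and the H77L mice from 0.72 to 8 TPM with a median of 2.52. The 5 C118F Btz mice had 0, 1.67, 7.25, 27.1 and 32.9 TPM. The medians stood in the order WT, H77L, C118F under each treatment, but the groups overlapped, and 1 mouse lay far above the rest of its group in H77L DMSO, C118F DMSO and WT Btz. Uchl1 passed the filter only through the DMSO-treated C118F group, where it was high, so its call there (1.68 ± 0.46, adjusted p = 0.0122) cannot be read as support. Its size depended on the treatment of low values and ranged from 1.67 to 3.64 over the other ways of fitting.

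An exact permutation test of log2(TPM + 1), two-sided, which needs no filter, was therefore made for Uchl1 in the 9 comparisons of 2 groups. In the exact test, the difference between C118F and WT under DMSO was 1.68 (p = 0.00866, and 0.0779 after adjustment over the 9 tests) and that between H77L and WT was 1.22 (p = 0.0238, and 0.107 after adjustment). Neither passed after adjustment. For C118F against WT under Btz, the difference was 1.54 (exact permutation p = 0.212, and 0.588 after adjustment), and the smallest p that such an exact test of 5 against 6 mice allows is 0.00433. The other 6 comparisons gave exact p-values between 0.29 and 0.92. Markers of neurons, in which Uchl1 is abundant, were near the floor under DMSO. All 7 were at no more than 1 TPM in every mouse of the H77L and C118F DMSO groups, and 6 of 7 in WT DMSO. Under Btz this held for all 7 in WT, but for only 4 in H77L and 4 in C118F. Their sum reached 6.02 TPM in a C118F Btz mouse and 22.2 TPM at most, in an H77L Btz mouse. Antisense RNA from this locus, Uchl1os, was listed at 0 in 34 of the 35 mice. The libraries were made with a kit that does not mark strand, so reads of Ubb, Sqstm1 and other genes with an annotated partner on the opposite strand cannot be told from those of the partner.

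Btz was compared with DMSO within each genotype, which asks whether the inhibitor changed the transcripts of the system that it acts on. Of the 6 genes tested in each genotype, and Uchl1, tested in C118F alone, none was called. In WT mice, limma called 0 of 10659 genes (0%), with 923 at an unadjusted p under 0.05. In H77L mice it called 125 of 10813 genes (1.16%), and in C118F mice 0 of 10814 (0%), with 634 at an unadjusted p under 0.05. The limma-voom fit to recovered reads called 0, 54 and 0 genes. The largest estimates for the members other than Uchl1 were in H77L mice, where Uchl5 was 0.22 ± 0.09 (95% interval 0.02 to 0.42, adjusted p = 0.21), Uchl3 was 0.20 ± 0.13 (-0.07 to 0.48, adjusted p = 0.38) and Ubb was 0.19 ± 0.08 (0.02 to 0.37, adjusted p = 0.21). For Ubb in WT mice the interval ran from -0.35 to 0.29, and in C118F mice from -0.29 to 0.29. The intervals of Sqstm1 were -0.17 to 0.40 in WT, -0.36 to 0.07 in H77L and -0.28 to 0.49 in C118F. The intervals give the changes that these values allow, so the absence of a call does not show the absence of a change. In the lists of the ubiquitin system, 3 genes were called in H77L mice and none in WT or C118F mice. They were Svip, the deubiquitinase Usp46 and Psmb6, all higher under Btz (Svip by 0.43 ± 0.08, adjusted p = 0.0315, Usp46 by 0.40 ± 0.08, adjusted p = 0.0352, and Psmb6 by 0.34 ± 0.08, adjusted p = 0.0471). Each was the only gene called in its list, of 27 tested for Vcp and its cofactors, 59 other deubiquitinases and 32 proteasome subunits. Over all genes the share called was 1.16%, and without the filter limma called 0 genes in H77L mice. Against WT under DMSO, Svip, Usp46 and Psmb6 were at -0.91, -1.25 and -0.59, a comparison that shares the DMSO-treated H77L mice.

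The response to Btz was also compared between genotypes, as a difference of differences over 4 groups. limma called 0 of 11163 genes for H77L minus WT (0%, 2037 at an unadjusted p under 0.05), 0 of 11197 for C118F minus WT (0%, 560) and 0 of 11046 for H77L minus C118F (0%, 840), and the voom fit also called 0 in each. The member nearest to a call was Uchl5 in H77L minus WT, at 0.41 ± 0.16 (95% interval 0.09 to 0.73, adjusted p = 0.16). Without WT Btz replicate 1, the mouse with the highest Uchl5, it was 0.51 and was called (adjusted p = 0.0467). So Uchl5 was called lower in H77L under DMSO and was not called under Btz, but a difference between those effects was not shown with all mice.

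The mutant lines were compared with each other under each treatment. Under DMSO, limma called 0 of 10809 genes (0%, 416 at an unadjusted p under 0.05, and 0 by voom), and under Btz 105 of 10803 (0.972%). No member tested was called, and Uchl1 was tested under DMSO alone. Under DMSO, C118F minus H77L was 0.13 ± 0.13 for Ubb (-0.15 to 0.40), -0.02 ± 0.17 for Sqstm1 (-0.38 to 0.34) and 0.15 ± 0.13 for Uchl5 (-0.13 to 0.44). Under Btz, Sqstm1 had the largest estimate, 0.23 ± 0.10 (0.01 to 0.45, adjusted p = 0.32).

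Beyond the members, the enzymes that load and remove ubiquitin moved in both directions. Of 31 activating (E1) and conjugating (E2) enzymes, 28 were tested, and 4 were called higher and 4 lower in H77L and in C118F under DMSO, below the shares of all genes in H77L (22.4% in either direction) and near those in C118F (13.7% higher, 16.6% lower). Ube2l6, an E2 best known for joining the ubiquitin-like protein ISG15, stood out: it was at 41.8 to 60.9 TPM in WT DMSO, 76.7 to 121.2 TPM in H77L DMSO and 108 to 453 TPM in C118F DMSO (1.05 ± 0.13, adjusted p = 1.9e-05, and 1.90 ± 0.27, adjusted p = 1.0e-04). Ube2g2, an E2 of the endoplasmic reticulum, was called higher in C118F (0.49 ± 0.13), and Ube2n, which makes chains linked through lysine 63, was called lower in H77L (-0.34 ± 0.09). Among 60 other deubiquitinases, of which 59 were tested, 15 were called higher and 7 lower in H77L DMSO, against 3 higher and 7 lower in C118F DMSO. The 15 called higher in H77L were near the background share of 22.4%, and the other counts were below the shares of all genes. The list median was 0.13 in H77L and -0.01 in C118F. Usp46 fell most by adjusted p in both lines. It was at 63.9 to 100.8 TPM in WT DMSO and 27.7 to 35.2 TPM in H77L DMSO (-1.25 ± 0.10, adjusted p = 4.4e-07), and at 21.1 to 35.7 TPM in C118F DMSO (-1.37 ± 0.14). Usp31 was called higher in H77L (0.82 ± 0.13) and Otud6b was called lower in C118F (-0.45 ± 0.10).

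Of 9 genes in a list of proteasome response factors and their regulators, 3 were called higher and none lower in either line under DMSO. Over all genes, 22.4% were called higher in H77L and 13.7% in C118F. Nfe2l1, the transcription factor that drives the proteasome genes, was at 483 to 809 TPM in WT DMSO, 855 to 1098 TPM in H77L DMSO and 695 to 1127 TPM in C118F DMSO (0.58 ± 0.12 and 0.41 ± 0.14). Bag3, a co-chaperone that works with Sqstm1, was higher by 0.91 ± 0.23 and 0.81 ± 0.22. Maff, a small Maf protein that pairs with such factors, was higher by 2.26 ± 0.30 and 2.48 ± 0.39. Under Btz, Nfe2l1 and Bag3 were called higher in both lines, while Maff was not called and reached 231.1 TPM in a WT Btz mouse.

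**Figure D3:**
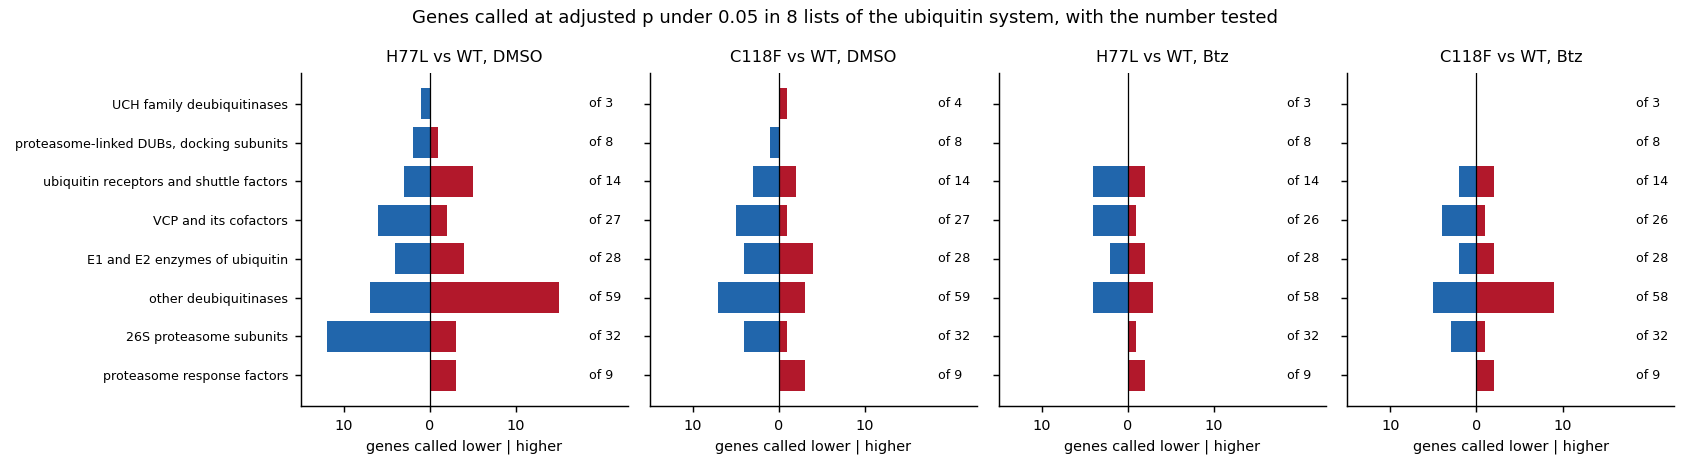
Number of genes called lower (blue, to the left) and higher (red, to the right) in 8 lists of the ubiquitin system, for the 4 comparisons of a mutant line with WT; the number of genes tested stands at the right of each bar. The 26S proteasome list has 12 of 32 genes called lower in H77L under DMSO and none in H77L under Btz. Of all genes, 22.4% and 11% were called lower in these comparisons. No subunit was called for the Btz response of H77L minus WT.

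The genes whose pattern over the 35 mice was most like that of each member were sought among 11306 genes, by the mean absolute difference of log2(TPM + 1) after each gene's own mean was taken off. For Ubb they were Polr2m (0.142), Hagh (0.145) and the Vcp cofactor Ubxn1 (0.145), against a median of 0.355 over all genes. For Sqstm1 they were Minpp1 (0.156), the deubiquitinase Usp48 (0.157) and Med15 (0.158). Uchl5 was nearest to Vti1b (0.0884), Cct7 (0.112) and Mrpl42 (0.113), and Uchl3 to the proteasome subunit Psmb2 (0.129), the E2 Ube2a (0.131) and Ppp3r1 (0.132). Usp14 was nearest to Rheb (0.0944), Scoc (0.0982) and Ywhaz (0.102), and Vcp to the deubiquitinase Usp4 (0.0923), Copb2 (0.0947) and Cand1 (0.098). For Uchl1, whose own mean deviation was 1.01, no gene came closer than Tppp3 (0.781), Slc16a3 (0.802) and Me1 (0.808). The own mean deviation is the distance to a gene that does not vary. It was 0.245 for Ubb, 0.326 for Sqstm1, 0.185 for Uchl5, 0.176 for Uchl3, 0.139 for Usp14 and 0.133 for Vcp. By this measure, genes that vary little can be near to a member that varies little without a shared pattern.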

How the data were processed

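Libraries of poly(A) RNA from sorted podocytes (SMART-Seq mRNA LP kit) were sequenced from 1 end. The authors trimmed reads with Trim Galore 0.6.7, aligned them to GRCm39 with STAR and counted them with featureCounts 1.6.3. A strand setting is not given in the sources used here. The values the authors deposited are TPM per gene and mouse, and the step from counts to TPM is not given. Of 33292 gene identifiers, 32776 were matched to GENCODE vM39.

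Each TPM value was turned into log2(TPM + 1), a scale on which changes of low genes are understated. limma 3.58.1 under R 4.3.3 (lmFit, then eBayes with trend) was run for 12 comparisons, each on its own mice alone and on the genes that exceeded 1 TPM throughout 1 or more of its groups. The p-values were adjusted by Benjamini-Hochberg over all genes tested, and genes at an adjusted p under 0.05 were called. The fit was tested on simulated data. Whole reads, estimated from the TPM steps for 99.9% of 23943 expressed genes, served for the depth and, chosen after the data were seen, for a limma-voom fit. Intervals are 95% intervals for the difference between group means. They and the SE values rest on the spread between mice after eBayes drew it toward a trend over all genes tested. No 2 libraries held identical values.

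All 7 members are named, with those results that the comparisons turn on. From each of 9 pathway lists, the 2 genes with the lowest adjusted p among those called in H77L and the 2 in C118F against WT under DMSO are named, and so are Rps27a, Uchl4, Psmd14, Lmx1b and the 3 genes nearest in pattern to each member, except for a few that are not reported here. Other genes of these lists were named after their values were seen, for being called in all 4 comparisons with WT or under Btz. The share of all genes called in all 4 was not counted, for the marker lists as well. The members and lists were chosen with earlier results of these data known. Groups followed the genotype and treatment labels, and the control label WT was taken as Lmx1b +/lox. Alternatives were a pseudocount of 0.1, no filter, equal medians, all 35 mice in 1 fit, the title number as covariate, no intensity trend, the cutoffs of the study (adjusted p under 0.001 and an absolute log2 change above 2) and leaving out each mouse. Marker lists covered podocytes, endothelial, mesangial, parietal and tubule cells, leukocytes and neurons.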

Additional observations from a re-analysis of the deposited data

Results flagged for a closer look

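There were 48 sets of mice, 6 groups for each of the 7 genes and for Rps27a. In 9 of them the highest or lowest mouse was far from the rest by Dixon's criterion. Among normally distributed values, chance alone meets it in about 1 of 20. Here it was applied to TPM, which is uneven for Uchl1, and the sets share mice, so the count was not tested against that rate. Uchl1 had a mouse far from the rest at 9.8 TPM in H77L DMSO, at 18 TPM in C118F DMSO and at 13 TPM in WT Btz. In WT Btz, Ubb at 3439.5 TPM and Sqstm1 at 1941 TPM came from the same mouse, replicate 6, which also had the lowest Vcp and Uchl3 of its group, and Uchl5 stood out at 98.5 TPM in replicate 1. In C118F DMSO, Usp14 was low at 55.9 TPM in replicate 4 and Ubb was high at 2292 TPM in replicate 5. In H77L Btz, Sqstm1 was low at 1477 TPM in replicate 2.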

How the results depend on the processing

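With all alternatives but the cutoffs of the study, the calls of Ubb, Sqstm1 and Uchl5 in H77L and of Ubb, Sqstm1 and Uchl1 in C118F under DMSO were kept. For Uchl1 this is not support. Apart from the fit without the filter, these fits kept the filter that it passed only through the DMSO-treated C118F group. With the cutoffs of the study, 0 members were called in each of the 4 comparisons with WT. Without the filter, 0 members were called in H77L against WT under Btz and 1, Sqstm1, in C118F. With the title number as covariate, 1 member, Ubb, was called in each of these. With 1 mouse left out at a time, 3 to 4 members were called in H77L and in C118F under DMSO, 1 to 2 in H77L and in C118F under Btz, and 0 to 1 in the Btz response of H77L minus WT. In the other 7 comparisons 0 members were called under every alternative. No called difference changed sign. In the fit of all 35 mice, Uchl5 was also called in C118F under DMSO (-0.31, adjusted p = 0.0381).

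Over all genes, 4907 were called in H77L against WT under DMSO and 2873 with the title number as covariate. For Btz in H77L the 125 genes called became 54 by voom, 58 in the fit of all mice, 19 without the trend and 0 without the filter; for C118F against H77L under Btz the 105 became 30, 51 and 13 in the last 3 of these and 24 with the covariate. The fit of all mice called 31 genes for Btz in C118F, and the fit without the trend 3 for the Btz response of H77L minus WT. At the cutoffs of the study, 238, 247, 130 and 211 genes were called in the 4 comparisons with WT, 0 for Btz in H77L and 1 in C118F against H77L under Btz. The cause of these shifts was not tested. No paired analysis was possible because no number in the labels recurs between groups. Reads of near-identical ubiquitin units and a level of Uchl1 resting on 0 to 283 reads a mouse limit what can be said of those genes.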
